A study of Rattus norvegicus with 17 samples.

Results

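Hippocampal RNA was sequenced from 17 adolescent Long-Evans rats, and in 3 of the 17 libraries the gene Ttr, which encodes transthyretin, stood far above all the others. The 3 libraries were selected on the Ttr count in the deposited table, with 1 from each maternal diet: animal 3a2 (ET, male, right hippocampus), animal 11f6 (PF, male, left hippocampus) and animal 13a4 (AD, female, left hippocampus). They are described here against the other 14, with diet as a covariate. ET offspring came from a dam given a liquid diet with 6.7% ethanol, PF offspring from a dam pair-fed a liquid diet, and AD offspring from a dam with free access to chow, each from gestational day 0 to 20, after which all dams ate chow. Tissue was taken at 36 to 38 days of age from 5 ET, 6 PF and 6 AD animals. Each diet was represented by a single litter, so that diet and litter cannot be told apart, and animals of a diet are littermates. No library outside the 3 was set aside.

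The choroid plexus is a folded tissue in the brain ventricles that makes cerebrospinal fluid. Its epithelial cells secrete transthyretin, carry thyroid hormone, vitamins and ions between blood and fluid, are joined by tight junctions and carry cilia. The plexus of the lateral ventricle attaches along the fimbria, next to the hippocampus, so both tissues lie side by side when the hippocampus is dissected. In bulk RNA, more cells of a type and more RNA per cell cannot be told apart.

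The normalized count of Ttr, scaled to a common library size, was 87591 in 3a2, 100267 in 11f6 and 112289 in 13a4. Among the other 14 libraries it ran from 36.1 to 14552 with a median of 850. The next libraries below the 3 were PF replicate 2 (animal 11f2) at 14552 and ET replicate 1 (animal 3a1) at 13793, and the one after those was at 2534. Ttr took up 0.667%, 0.768% and 0.834% of all counted fragments in 3a2, 11f6 and 13a4, and at most 0.111% in any other library. The other 2 markers of this tissue used to check the label behaved alike. Mfrp, a frizzled-related membrane protein, was at 2300, 2747 and 2650 in the 3 libraries and at 5.75 to 340 in the rest. Tmem72, a transmembrane protein abundant in plexus epithelium, was at 1174, 1348 and 1474 against 0.639 to 185. On these markers the 3 libraries are called choroid plexus-rich below.

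The libraries held 10853947 to 17498392 counted fragments, and the 3 choroid plexus-rich ones, with 10853947 to 12245959, were among the shallower. A count of 3 fragments corresponded to at most 2.76e-05% of a library, and these limits cover counting error only. In the AD group, replicate 6 carried pineal genes, with Tph1 at 12886 where the next library had 84.0, and it is named below wherever it touched a choroid plexus gene. Y-linked counts disagreed with the sex label in 2 of the 17 libraries, both of them AD and neither among the 3.

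Because the libraries were chosen on their counts, the contrast of the 3 with the other 14 is a description without a p-value. A gene was called higher when all 3 libraries lay above all 14 others and its diet-adjusted log2 fold change, taken from an edgeR fit, exceeded 1.5. Of 16592 genes with enough counts, 193 were called higher (1.16%) and 1 was called lower (0.00603%). The filter on low counts used all 17 libraries, so that a gene could pass it through the 3 alone. Among the 192 genes called higher other than Ttr, 131 also passed such a filter in the other 14. At any fold, 673 genes (4.06%) lay above the other 14 in all 3 libraries and 112 (0.675%) lay below them. Over all genes tested, the log2 fold change had a median of -0.003. The members nearest the limit were Odad2, Cab39l and Spef2 inside it, at 1.51, 1.51 and 1.52, and Cdr2 and Cgn outside it, at 1.48 each. The 193 genes together took up 1.43% of fragments in 3a2, 1.55% in 11f6 and 1.565% in 13a4, against 0.0970% to 0.314% elsewhere. Without Ttr the shares were 0.763%, 0.7815% and 0.731% against 0.0968% to 0.203%.

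**Figure D1:**
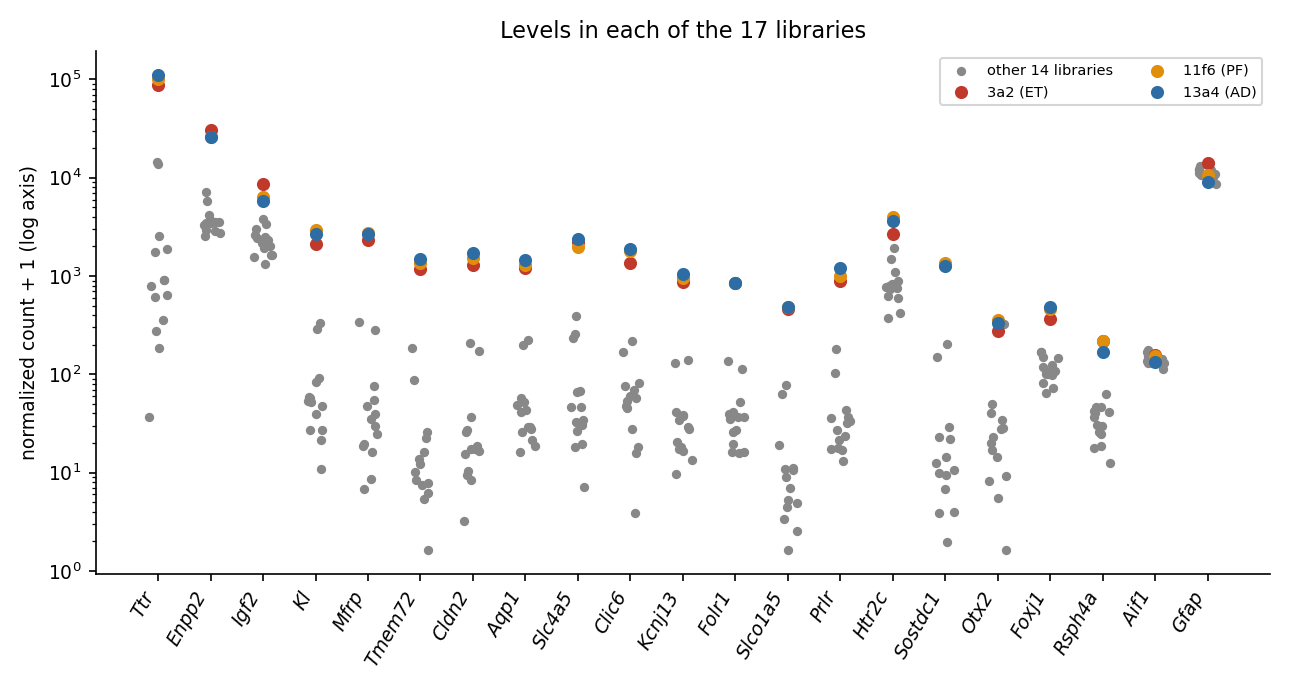
Normalized count plus 1 (log axis) of 21 genes in each library, with 1 coloured point for each choroid plexus-rich library and grey points for the other 14. For Ttr the 3 libraries sit at 87591 to 112289 and the other 14 at 36.1 to 14552, while the microglial gene Aif1 and the astrocyte gene Gfap fall near the grey points, except that 3a2 was just above them for Gfap.

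Choroid plexus genes were followed in lists by role. Over all of them, 35 of the 80 genes tested were called higher, 48 lay above the other 14 at any fold, none was called lower, and the median log2 fold change was 1.31. The lists include Ttr, which chose the libraries, and without it 34 of 79 were called higher, with a median of 1.29. The shares stand against 1.16% and 4.06% of all genes.

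Among genes of secreted proteins, 8 of 19 were called higher, with a median log2 fold change of 1.21. Without Ttr these values were 7 of 18 and 1.11. Enpp2, which encodes autotaxin, was at 30716, 26201 and 25931 in 3a2, 11f6 and 13a4, against 2545 to 7111 with a median of 3504 elsewhere (log2 fold change 2.86, SE 0.19). It was the second largest addition of counts after Ttr. F5, coagulation factor V, was at 2521, 2686 and 2369 against 11.7 to 340 (5.11, SE 0.52). Sostdc1, a secreted inhibitor of Wnt and BMP signalling, was at 1301, 1348 and 1264 against 0.958 to 201 (5.48, SE 0.61). The ranges of the 2 sets of libraries were far apart for each of these genes.

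Igf2, the insulin-like growth factor made by plexus and meninges, was at 8571, 6325 and 5831 against 1314 to 3807 (log2 fold change 1.58, SE 0.20). Igfbp2, which binds it, was at 3184, 2853 and 2558 against 378 to 1106 (2.05, SE 0.20). Mdk, which encodes the heparin-binding factor midkine, was at 1377, 1767 and 1587 against 170 to 389 (2.71, SE 0.17). Ace, the angiotensin-converting enzyme, was at 2272, 2472 and 2679 against 134 to 545 (3.63, SE 0.26). Several listed genes did not follow. Cst3, Vegfa, Bmp6 and Cp had log2 fold changes of 0.19, 0.07, 0.00 and 0.34, and Col8a1, a collagen, was not called, as AD replicate 6 had 300 counts where the next of the 14 had 37.8.

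Among genes for ion and water transport and junctions, 10 of 21 were called higher (median log2 fold change 1.48). Aqp1, the water channel of the apical membrane, was at 1215, 1295 and 1466 against 15.3 to 220 (4.59, SE 0.47). Slc4a5, a sodium bicarbonate cotransporter, was at 2230, 1957 and 2396 against 6.07 to 391.5 (4.68, SE 0.62). Clic6, a chloride channel-like protein, was at 1360, 1798 and 1891 against 2.88 to 219 (4.80, SE 0.43). The potassium channel gene Kcnj13 was at 865, 954 and 1050 against 8.62 to 139, and the channel subunit gene Kcne2 at 608, 783 and 800 against 14.7 to 157. Again every one of the 3 libraries exceeded all others.

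Claudins make up the tight junctions. Cldn2, which forms cation and water pores, was at 1292, 1507 and 1719 against 2.24 to 206 (log2 fold change 5.44, SE 0.57), and Cldn1 at 256, 286 and 333 against 15.4 to 84.6 (2.95, SE 0.23). The carbonic anhydrase Ca12 was at 2166, 2867 and 2933 against 646 to 1361 (1.59, SE 0.16). The sodium pump subunit gene Atp1b1, which neurons and glia use as well, had a log2 fold change of 0.00, and the chloride cotransporter Slc12a2 had one of 0.37.

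Of the transporters for nutrients and other solutes, 6 of 19 were called higher (median 0.90). Folr1, the folate receptor that carries folate into cerebrospinal fluid, was at 846, 842 and 844 against 15.01 to 137 (4.37, SE 0.35). Slco1a5, an organic anion transporter, was at 456, 488 and 485 against 0.639 to 76.0 (5.14, SE 0.52). Slc13a4, a sulfate transporter shared with the meninges, was at 1752, 1713 and 1232 against 213 to 517 (2.06, SE 0.20). Stra6, the retinol receptor, and Steap1, a metalloreductase, were also higher (2.64 and 3.50). The copper transporter gene Slc31a1 lay above all 14 others at 1319, 1425 and 1405, but at 1.29 it stayed under the limit. Slc46a1, Slco1c1, Abcg2 and Slc6a20 had values of 0.11, 0.18, 0.14 and -0.19.

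Of the receptor and surface protein genes, 8 of 12 were called higher (median 1.99). Kl, which encodes the ageing-related protein klotho, was at 2096, 2947 and 2677 against 9.90 to 334 (5.16, SE 0.49). Prlr, the prolactin receptor, was at 893, 1009 and 1207 against 12.1 to 180 (4.76, SE 0.41). Htr2c, a serotonin receptor that hippocampal neurons also carry, was at 2696, 3966 and 3598 against 372 to 1914 (2.03, SE 0.28). The epithelial keratins Krt8 and Krt18 were higher (1.89 and 3.31). The endocytic receptor gene Lrp2 and the adhesion genes Cdh1 and Epcam were not, with log2 fold changes of 0.52, -0.29 and -0.50 on counts of at most 43.2 in the 3 libraries.

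Of the transcription factor genes, 3 of 9 were called higher (median 0.76). Lmx1a was at 111, 121 and 128 against 0.958 to 22.6, Msx1 at 415, 437 and 433 against 52.3 to 106, and Foxj1, the regulator of motile cilia, at 367, 461 and 483 against 63.0 to 167. Otx2, needed for plexus identity, was at 272, 358 and 335, and it was not called, as AD replicate 6 reached 325 while the next of the 14 had 49.0. Without AD replicate 6, 210 genes were called higher.

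Genes not on any list made up most of the 193: 39 were list members and 26 carried provisional names. Those with the largest folds included Adipoq, the adipokine adiponectin, at 61.3, 74.2 and 69.0 against 0 to 6.41 (log2 fold change 5.39, SE 0.36), Pon1, the lipoprotein-associated paraoxonase, at 35.5, 57.5 and 53.3 against 0 to 4.72, and Cltrn, collectrin, at 186, 309 and 311 against 0 to 48.2. Vat1l, of the quinone oxidoreductase family, added many counts from a high base, at 2947, 3352 and 3129 against 530.4 to 1320 (2.08, SE 0.19). Overlapping genes cannot always be separated in these counts, whose strand setting is not given in the sources used here. Of the 193, 82 (42.5%) overlap another gene in the GRCr8 annotation, against 41.45% of all genes tested, and they include F5, Ace, Igf2, Slc4a5, Kcnj13, Slco1a5, Slc13a4, Stra6, Htr2c, Mdk and Lmx1a.

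Cilia genes formed the second group. Of 19 tested genes of motile cilia and ependyma, the ciliated lining of the ventricles, 4 were called higher, 8 lay above the other 14 at any fold, and the median log2 fold change was 1.14. Rsph4a, a radial spoke protein, was at 216, 218 and 170 against 11.5 to 61.5 (2.62, SE 0.23). Cfap44, an axonemal protein, was at 331, 429 and 369 against 66.6 to 279 (1.68, SE 0.29). Dnah11, a dynein heavy chain, was at 125, 188 and 141 against 29.4 to 114 (1.55, SE 0.29). Outside the list, Cfap300 was at 356, 331 and 355 against 53.6 to 101. Hydin, Ak7 and Dnah5 overlapped the other libraries in ET replicate 3, which reached 333, 170 and 286.

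Promoter sequence of these genes was read from RefSeq, on GRCr8 and on the gene's own strand, as the 250 bases before the annotated start. It is shown because Otx2 and the cilia regulator Foxj1 are among the genes described above, and the capitals mark TAATCC, the letters that OTX proteins prefer, or GTTGCC, the core of the X-box read by RFX proteins of ciliated cells, on either strand. The 3 promoters shown were picked for holding a match. These are Mfrp at chr8:53342284-53342533 (plus strand), Ace at chr10:91409879-91410128 (plus strand) and Cfap44 at chr11:69789906-69790155 (minus strand).
Mfrp: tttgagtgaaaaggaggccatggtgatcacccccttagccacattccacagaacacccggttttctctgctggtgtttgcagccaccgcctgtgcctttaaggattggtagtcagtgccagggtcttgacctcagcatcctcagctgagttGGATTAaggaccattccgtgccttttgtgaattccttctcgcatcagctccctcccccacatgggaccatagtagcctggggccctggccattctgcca
Ace: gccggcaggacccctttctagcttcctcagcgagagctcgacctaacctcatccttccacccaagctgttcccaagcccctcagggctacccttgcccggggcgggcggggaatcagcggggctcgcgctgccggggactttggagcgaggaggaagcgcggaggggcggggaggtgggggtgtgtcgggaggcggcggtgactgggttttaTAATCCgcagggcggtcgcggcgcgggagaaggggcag
Cfap44: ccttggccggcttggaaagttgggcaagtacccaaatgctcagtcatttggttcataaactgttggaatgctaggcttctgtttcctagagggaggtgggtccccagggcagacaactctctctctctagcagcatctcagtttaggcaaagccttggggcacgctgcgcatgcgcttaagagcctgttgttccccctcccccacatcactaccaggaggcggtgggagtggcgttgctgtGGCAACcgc

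Of the 193 genes, 138 had a promoter in the table. TAATCC stood in 14 of these (10.1%), against 6.33% of all 27457 promoters. Of the 12 promoters found for the genes tested below as following Ttr, 1, that of Mfrp, held it (8.33%). GTTGCC stood in 15 (10.9%), against 9.90%. TGTTTAC, the letters of forkhead proteins such as Foxj1, stood in 6 (4.35%), against 3.25%. Of the cilia list, 7 of 19 promoters (36.8%) held GTTGCC. These 19 are the list members with a promoter, and not the 19 genes tested above. Only 2 of them belonged to genes called higher, and 1 of those 2, Cfap44, held it. Hydin and Tekt1 held it and were not called. Ccno, Mcidas, Sntn and Spag6 held it but did not pass the filter on low counts, so whether they were higher is not known. The RFX genes Rfx2 and Rfx3 were not called. Each motif was searched on both strands. A match is a run of letters, and no binding was measured.

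None of the listed genes of neurons in general, dentate granule cells, CA pyramidal cells, interneurons, astrocytes, oligodendrocytes, microglia or mural cells was called higher or lower, and the medians of these lists ran from -0.12 to 0.18. In single libraries some summed levels lay outside the range of the other 14. Interneuron genes summed to 8412 in 3a2 and 11831 in 13a4 against 9484 to 11754, with 1 and 7 of 10 genes above the mean of the diet mates, and astrocyte genes to 69413 in 13a4 against 70734 to 87347, with 0 of 10 above that mean. Immediate early genes, which neuronal activity induces, summed to 2042 in 3a2 against 2300.3 to 5121, with 0 of 10 above the mean of its mates. In 11f6 they summed to 2320.5, within the range, also with 0 of 10 above that mean (median log2 ratio -0.41), and 0 of 15 general neuronal genes were above it (median -0.16). By contrast, 6 of 10 immediate early genes (median 0.18) and 8 of 15 general neuronal genes (median 0.03) were above it in 13a4. In 3a2, 4 of 15 general neuronal genes were (median -0.15). Over all genes tested, 46.75% were above that mean in 3a2, 48.0% in 11f6 and 46.9% in 13a4. Camk2a, the calcium kinase of excitatory neurons, was at 64185, 55231 and 61237 within a range of 49578 to 77927 elsewhere. Mbp, myelin basic protein, was at 136536, 89399 and 94118 within 81872 to 145684. Csf1r, the microglial growth factor receptor, was at 1398, 1339 and 1123 within 1080 to 1622.

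Vessel genes were split. Cldn5 and Flt1 of blood-brain barrier endothelium had log2 fold changes of -0.14 and -0.05. Plvap, the diaphragm protein of fenestrated capillaries such as those of the choroid plexus, was at 86.3, 78.1 and 82.2 against 14.2 to 40.9 (1.77, SE 0.20). It was the only called gene of the 12 tested on the endothelial list. The largest log2 fold change of that list, 1.86, belonged to another gene, which did not lie above all other libraries. Against diet mates, 9, 4 and 1 of the 12 endothelial genes were above the mean in 3a2, 11f6 and 13a4 (medians 0.07, -0.07 and -0.27). For the 9 mural genes these were 4, 0 and 1 (medians -0.05, -0.06 and -0.49).

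Among genes below the other 14 without passing the limit, Mef2c, a neuronal transcription factor, was at 1968, 1595 and 1715 against 2024 to 6652 (log2 fold change -1.09, SE 0.38).

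**Figure D2:**
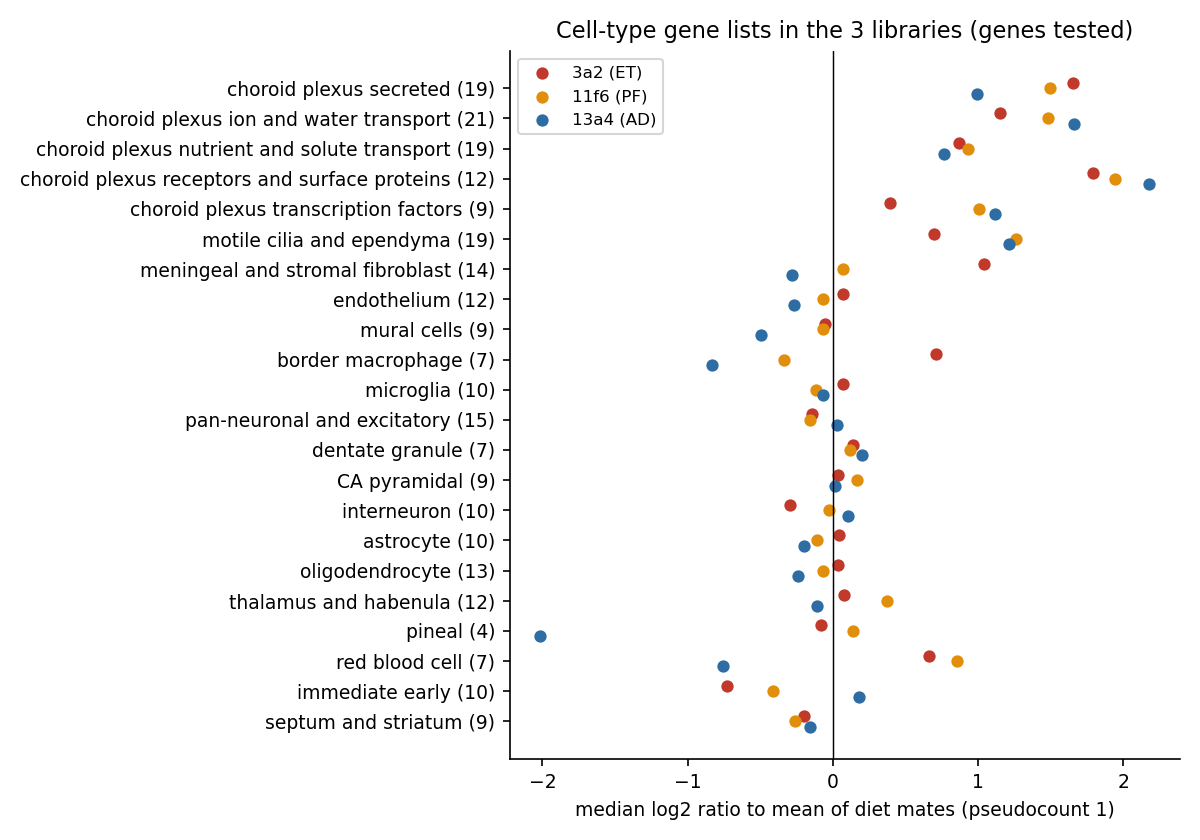
Median log2 ratio of each choroid plexus-rich library to the mean of the other libraries of its diet, for 22 gene lists (number of genes tested in parentheses). The choroid plexus and cilia lists lie above 0 in all 3 libraries, the meningeal list lies at 1.04 in 3a2 and at 0.07 and -0.28 in 11f6 and 13a4, and the pineal list lies at -2.01 in 13a4, whose diet mates include AD replicate 6.

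Each of the 3 libraries was also set against its own diet mates, the 4 other ET, 5 other PF or 5 other AD libraries. A gene was called when it lay above all mates with a log2 ratio over 1.5 and a normalized count of at least 50, again with no test. This gave 121 genes in 3a2 (0.729%), 167 in 11f6 (1.01%) and 149 in 13a4 (0.898%). In all 3 libraries 94 genes were called, which is 77.7% of those of 3a2, 56.3% of those of 11f6 and 63.1% of those of 13a4. A further 29 were shared by 11f6 and 13a4 only, 6 by 3a2 and 11f6 only, and 7 by 3a2 and 13a4 only. Lower than their mates were 11, 7 and 14 genes, with none in all 3.

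For the 193 genes the highest of the 3 libraries exceeded the lowest by a median factor of 1.32, and for 181 of them (93.8%) the factor was below 2. Over the 16485 tested genes counted in all 3 libraries, the median factor was 1.18 and 92.45% were below 2, and the call itself favours genes alike in the 3. Among the 193 it was largest, at 3.33, for the amino acid transporter gene Slc38a11, with 27.0, 33.7 and 90.0. Counted per 1000 fragments of Ttr in the same library, Cldn2 gave 14.75, 15.03 and 15.31 in 3a2, 11f6 and 13a4. Kcnj13 gave 9.87, 9.52 and 9.35, and Kl gave 23.9, 29.4 and 23.8. Enpp2 varied more, with 351, 261 and 231, and was highest in 3a2. These ratios compare libraries for a gene and not genes with each other, which differ in length.

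Library 3a2 differed from the other 2 in genes of meninges and connective tissue, though not in all of them. Of the 14 such genes tested, none was called higher in the 3 libraries. At any fold, 3 of the 14 lay above all other libraries in 3a2, 11f6 and 13a4 alike, next to 4.06% of all genes. The summed level of the 14 fibroblast genes was 9916 in 3a2, 5586 in 11f6 and 4836 in 13a4, against 4249 to 7254 elsewhere, and none of the 14 was at 0. Col1a1, the collagen I chain, was at 1450, 618 and 423 against 473 to 1149 in the other 14, so that 3a2 lay above that range and 13a4 below it. Ogn, osteoglycin, was at 959, 494 and 406 against 234 to 429. Slc47a1, a cation transporter of meningeal cells, was at 100.5, 18.5 and 12.4 against 22.0 to 98.5, and Aldh1a2, the enzyme of retinoic acid synthesis, at 417, 115 and 82.2 against 124 to 329. Igf2, Igfbp2 and Slc13a4, which meningeal cells also express, were highest in 3a2. Genes of border macrophages also had their highest sum in 3a2, though none was called higher in the 3 libraries. They summed to 979 in 3a2 against 411 to 804 in the other 14, with 7 of 7 tested genes above the mean of its mates. In 11f6 and 13a4 they summed to 642 and 632, with 3 and 2 of 7 above that mean. At any fold, 1 of the 7 lay above all other libraries in 3a2, 11f6 and 13a4 alike. What part the meningeal or macrophage genes had in the values of 3a2 was not tested.

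Genes called in 3a2 and in neither other library numbered 14. Since 3a2 came from the right hippocampus and its 4 diet mates from the left, hemisphere and whatever else sets 3a2 apart from its mates cannot be told apart. The 14 included the growth factor gene Gdf7, at 72.6 against a mean of 3.89 in its mates (AD replicate 6 had 51.3), and Sfrp1, a secreted Wnt inhibitor, at 453 against 149. The 5 haemoglobin genes and other red cell genes of the list of 7 summed to 17697 in 3a2 and 12953 in 11f6, but to 7346 in 13a4, with 4274 to 14094 elsewhere.

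Genes called against diet mates in 11f6 alone numbered 38. Falling under the limit in the other libraries does not make a gene particular to 11f6, and Cdhr4 and Dnah11 are among the 193 called higher in all 3. Several of the 38 belong to cilia: Cdhr4, Dnah11, Dnah12 and Dnah3 had log2 ratios to its mates of 2.32, 2.07, 1.92 and 1.92. The cilia list had a median log2 ratio of 1.26 in 11f6 and 1.21 in 13a4, but of 0.70 in 3a2. The summed level of the list was 3887 in 11f6, 3417 in 13a4 and 3221 in 3a2, whose mates include ET replicate 3 at 2799, with 1298 to 1873 in the other ET mates. The list of thalamic and habenular genes had a median log2 ratio of 0.37 in 11f6, with 8 of 12 genes above the mean of its mates and 3, Shox2, Prkcd and Zic1, over 1, next to 48.0% and 2.66% of all genes. Shox2, a transcription factor of thalamus and habenula, was at 92.4 against a mean of 2.36 in the PF mates, and Prkcd, a kinase of thalamic relay cells, at 648 against 170. In 3a2 Shox2 was at 64.2, but ET replicate 3 reached 100, and in 13a4 it was at 3.75.

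Genes called against diet mates in 13a4 alone numbered 19, again by that limit, and Ca12 is among the 193 called higher in all 3. Mx1, an interferon-induced GTPase, was at 138 against a mean of 21.9 in its mates, where 3a2 and 11f6 had 40.4 and 41.9. Npy2r, a neuropeptide Y receptor, was at 295 in 13a4 and 296 in 11f6 but at 92.4 in 3a2, with 28.7 to 271 in the other 14. The carbonic anhydrases Ca12 and Ca14 had larger log2 ratios to diet mates in 13a4, at 1.93 and 1.66, than in 3a2 or 11f6. Lyve1, of border macrophages and lymphatic vessels, was at 4.88 in 13a4 and at 71.4 and 51.5 in 3a2 and 11f6, but AD replicates 2 and 6 were also low, at 3.38 and 6.17.

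**Figure D3:**
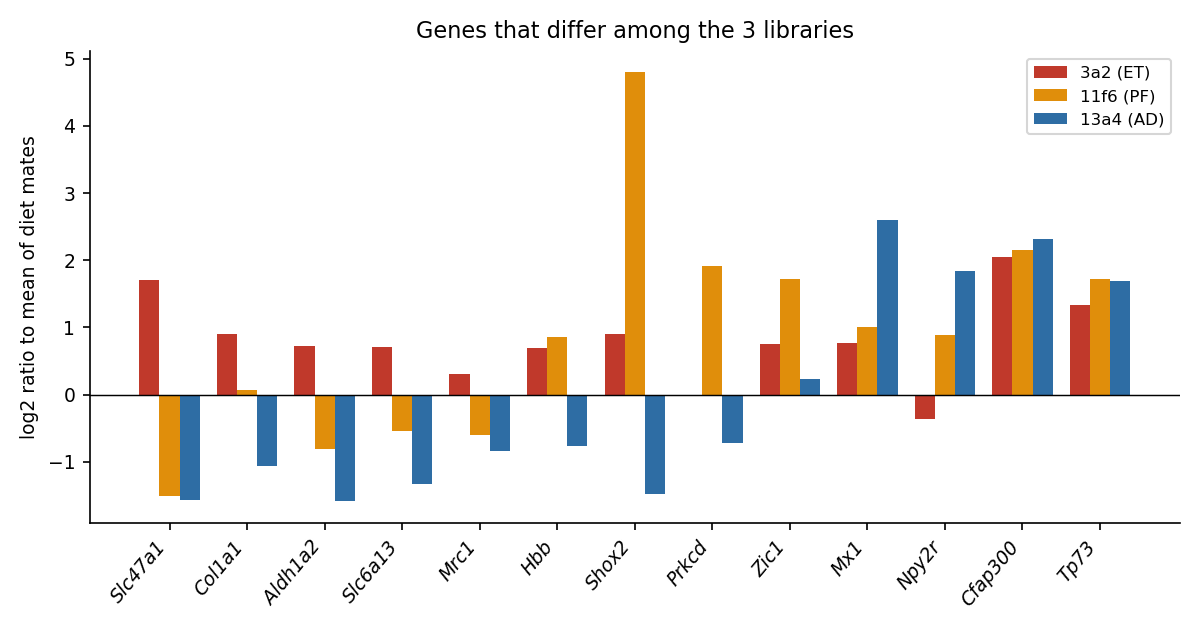
Log2 ratio of each choroid plexus-rich library to the mean of its diet mates (bars from 0, pseudocount 1) for 13 genes of different origin. Slc47a1 lies at 1.70 in 3a2 and below 0 in 11f6 and 13a4, Shox2 stands out in 11f6 at 4.80 and Mx1 in 13a4 at 2.60, while Cfap300 is alike in all 3.

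The other 14 libraries allowed a test that does not use the 3. Ttr varied widely among them too, and the slope of each gene on log2 Ttr CPM (counts scaled to library size) was fitted with diet as covariate, leaving Ttr itself out. Over 16271 genes, by the quasi-likelihood test of edgeR with Benjamini-Hochberg adjustment, 16 genes followed Ttr at an adjusted p below 0.01 (0.0983%) and 0 opposed it. DESeq2 gave 20 that followed and 0 that opposed. At an unadjusted p below 0.05 the edgeR numbers were 340 and 255, together fewer than the 814 genes that make up 5% of those tested. These counts at an unadjusted p changed with single libraries, to 116 and 39 without ET replicate 1, 220 and 111 without ET replicate 3, 680 and 692 without PF replicate 2, and 751 and 704 without AD replicate 5. Without PF animal 11f5 or AD replicate 1, 458 or 390 opposed.

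All 16 were among the genes called higher in the 3 libraries. Of the 192 such genes other than Ttr, 131 could be tested, and 117 of them (89.3%) had a positive slope, against 51.4% of all genes. The rest had counts too low for the fit in these 14 libraries. The median slope of the 131 was 0.08 and that of all genes 0.00 (0.0009).

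Cldn2 rose 1.74-fold for each doubling of Ttr (slope 0.80, SE 0.03, quasi-likelihood adjusted p = 2.5e-08). Kl had a slope of 0.60 (SE 0.03, adjusted p = 2.5e-08 in the edgeR fit). Sostdc1 had 0.93 (SE 0.05) and Mfrp 0.76 (SE 0.04), both at an adjusted p of 2.1e-07 in edgeR. Slco1a5 and Tmem72 followed with 0.78 and 0.86. The values of Cldn2 show the course: 2.24 in AD replicate 1, where Ttr was 36.1, then 7.36 to 36.1 in the 11 libraries with Ttr between 185 and 2534, then 172 and 206 in ET replicate 1 and PF replicate 2.

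The other genes that passed were Aqp1 (0.56), Slc4a5 (0.76), Kcnj13 (0.48), Clic6 (0.50), Prlr (0.47), F5 (0.65), the cadherin Cdh3 (0.36), Prr32 (0.44), Fyb2 (0.49) and Nt5dc2 (0.14). By list, 2 of 17 secreted, 5 of 21 ion and water transport, 1 of 18 nutrient transport and 4 of 11 receptor genes passed. None of 8 transcription factor and none of 19 cilia genes did, and Foxj1 had a slope of 0.07 (SE 0.05). Igf2 had a slope of 0.05 (SE 0.05) and Htr2c of -0.01 (SE 0.07).

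The number of passing genes depended on single libraries and on covariates. Without ET replicate 1, 6 genes passed, without PF replicate 2, 5, and without both, 2, which were Cldn2 and Kl. Without PF replicate 1 or without PF animal 11f5, 10 passed. With the sex label or hemisphere added as a covariate, 10 passed as well.

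**Figure D4:**
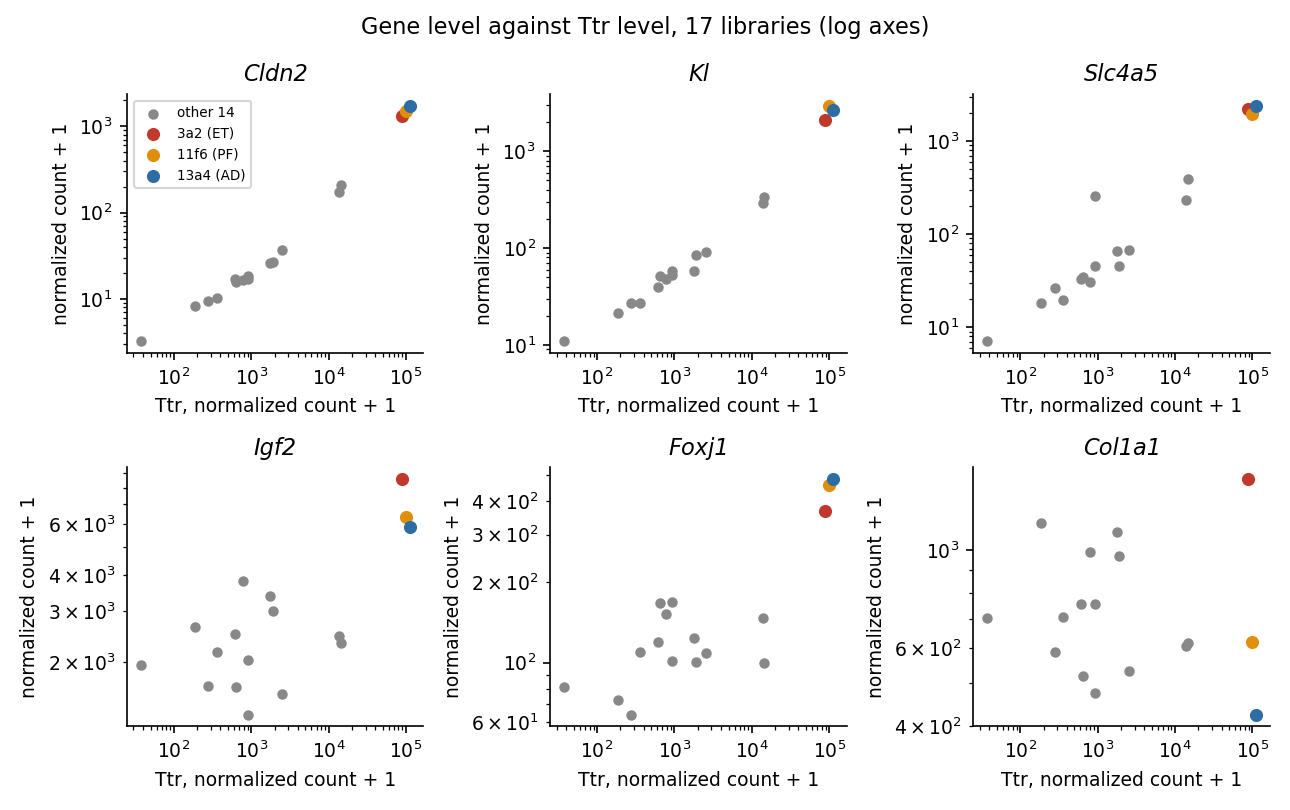
Normalized count plus 1 of 6 genes against that of Ttr in the 17 libraries, both axes logarithmic. Cldn2 and Kl line up with Ttr from 36.1 to 112289 counts, Slc4a5 does so apart from AD replicate 6, at 255, and among the grey libraries Igf2, Foxj1 and Col1a1 had slopes of 0.05, 0.07 and 0.01.

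ET replicate 1 and PF replicate 2 were then compared with the choroid plexus-rich library of the same diet. Their excess of Ttr over the other mates was 14.7% of that in 3a2 and 13.6% of that in 11f6. Cldn2 gave 12.4 and 14.1 counts per 1000 of Ttr in these libraries, and Kcnj13 gave 9.36 and 9.53, next to 9.35 to 9.87 in the 3 libraries. F5 was lower in ET replicate 1, with 10.95 per 1000 against 21.1 to 28.8 in the 3 libraries. Over the 176 called genes other than Ttr that did not pass the slope test, the excess in ET replicate 1 had a median of 4.12% of that in 3a2 and was positive for 114, and in PF replicate 2 it had a median of 10.7% of that in 11f6 and was positive for 162. These values are a description, since the libraries were picked for their Ttr and Cldn2, Kcnj13 and F5 passed a slope test that includes them.

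**Figure D5:**
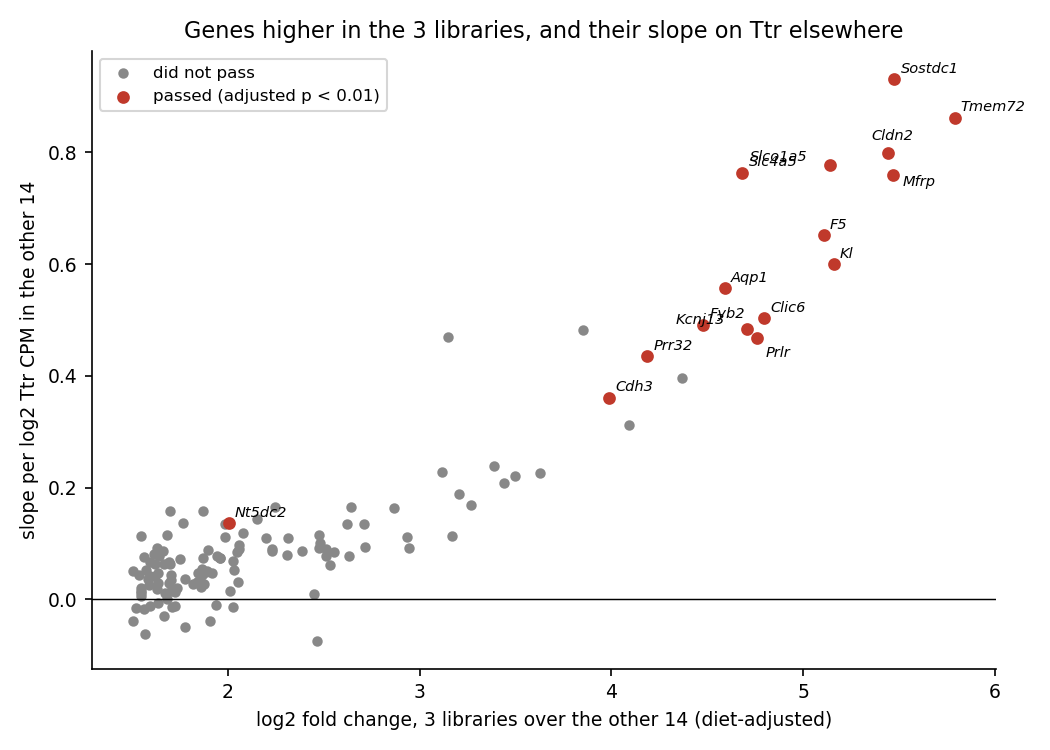
Log2 fold change of the 3 libraries over the other 14 (horizontal) against the slope on log2 Ttr CPM in the other 14 (vertical), for the 131 called genes that could be tested in both, with genes past an adjusted p of 0.01 in red. The passing genes lie mostly at log2 fold changes from 3.99 to 5.79, with Nt5dc2 at 2.00 as the exception, and 117 of the 131 points are above 0.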

How the data were processed

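RNA was extracted from frozen hippocampus and sequenced as paired-end libraries. Per the labels and the study's methods, the authors trimmed reads, mapped them to mRatBN7.2 with Bowtie2 2.4.2 and counted fragments on exons with featureCounts 2.0.1. The values the authors deposited are fragment counts averaged over 3 technical replicates of each sample and not normalized, so that averaging hides the technical spread. Deposited values need not be whole, were handled like expected counts and were rounded to whole numbers for the fits. Reads could count for several features, which can raise overlapping genes.

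The 3 libraries, the gene lists and the tests were chosen with earlier results of these data known. Genes were filtered with filterByExpr and scaled by TMM, and models were fitted with edgeR 4.0.16 (glmQLFit, glmQLFTest) in R 4.3.3, with DESeq2 1.42.0 as an alternative. The SE of a coefficient is its size divided by the square root of F. Log2 ratios to diet mates carry a pseudocount of 1. The named genes were the 15 called higher with the largest log2 fold change, the 15 with the largest mean excess over diet mates, up to 10 called lower, the 10 of smallest p in the slope fit, the 2 to 6 most abundant members of each list and members unlike the rest of their list. Genes called in a single library were named after their values were seen. Mef2c was also named after its values were seen, and the gene called lower is counted but not reported here. On simulated data, the calls recovered 100% of 200 genes changed by 2.5 (log2) among 16409, and the slope test 99.5% of 200 genes with a slope of 0.5 among 16265, with 1 false call each.

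Replicates are separate animals, of a single litter per diet, so p-values measure the spread between littermates. PF male columns 11f5 and 11f6 could not be tied to a replicate number and were used by diet, with the sex and hemisphere that both candidate samples share. No 2 libraries of a diet were alike within sampling noise (smallest chi-square per gene 8.61 over 40 pairs). Gene overlap and promoters came from RefSeq on GRCr8, which is not the build of the counts, so it was used for names, neighbours and promoter sequence alone. Of 34322 symbols, 27234 matched to that annotation. Tables and plots were made with Python 3.11.15, pandas 2.3.3 and matplotlib.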

Additional observations from a re-analysis of the deposited data

Results flagged for a closer look

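Within each diet, a library was singled out when its distance to the nearest other library was large for the group's range by Dixon's test, which chance does in about 1 of 20 groups. Of 66 groups (22 lists of summed levels in 3 diets), 20 were singled out. For secreted choroid plexus genes these were 3a2 at 149242, 11f6 at 152578 and 13a4 at 164525.8. For receptors they were 10414, 13302 and 12949, and for nutrient transport 12756, 13149.9 and 11911, in the same order. Ion and water transport stood out in 11f6 at 67502 and 13a4 at 73479.2, transcription factors in 13a4 at 3693, and cilia genes in 11f6 at 3887 and 13a4 at 3416.5. Since Ttr chose these libraries and is on the secreted list, the secreted values are partly the choice itself. Mfrp and Tmem72, used to check the label, are on the receptor list. The lists were chosen with earlier results known and the 3 libraries for their Ttr. The choroid plexus and cilia groups are therefore no separate support, and 20 of 66 cannot be read against 1 of 20.

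Other lists singled out were microglia in PF replicate 1 at 5022, thalamic genes lowest in 13a4 at 2410.1, pineal genes lowest in PF replicate 3 at 91.8 and highest in AD replicate 6 at 15552, immediate early genes in PF animal 11f7 at 5121, and septal and striatal genes in AD replicate 6 at 4026. By gene, over 448 genes that are list members or called, the highest library stood apart most often in 11f6 (211 genes), 13a4 (200 genes) and 3a2 (167 genes), followed by AD replicate 6 (18), PF animal 11f7 (7), PF replicate 3 (5), PF replicate 1, ET replicate 1 and ET replicate 5 (3 each), ET replicate 3 and AD replicate 5 (2 each) and AD replicate 1 (1). The 448 include the 193 genes called because 11f6, 13a4 and 3a2 lay above all others, so the counts of these 3 libraries are set by that choice. The lowest library stood apart in AD replicate 6 for 5 genes and in PF replicate 3, 11f6, 13a4, ET replicate 1 and ET replicate 3 for 1 each.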

How the results depend on the processing

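The number of genes called higher, 193, stayed between 184 and 214 when each library was left out in turn, and was 193 with median-of-ratios scaling and with DESeq2, all 193 genes shared in both. Without a filter on low counts it was 290 and with a log2 fold change limit of 1 it was 297. The number called lower, 1, was 0 with median-of-ratios scaling and with hemisphere as covariate, 2 without the filter, 3 at the limit of 1, and 0 to 8 when a library was left out (8 without ET replicate 2, 3 without 11f6 or 13a4, 2 without ET replicate 4 or PF replicate 3). Genes that followed Ttr, 16, numbered 10 with the sex label or with hemisphere as covariate, and 5 to 16 when a library was left out. The pair of ET replicate 1 and PF replicate 2 left 2, and the pair of AD replicates 1 and 2, whose sex labels were in doubt, left 10. These fits and those of numbered libraries without a block were added after the data were seen. With 8 other epithelial genes in place of Ttr, 12 genes followed and Ttr had a slope of 1.56 (edgeR adjusted p = 0.00043). The 8 include Kl, Prlr, Clic6, Kcnj13, Slc4a5 and Sostdc1, which followed Ttr in the same libraries, so this slope is not separate support. They also include Otx2, which was high in AD replicate 6. The 8 themselves were not tested, so 12 is not directly comparable with 16, and 9 of the 12 were among the 16. The cause of these shifts was not tested.

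Replicate numbers did not pair animals across diets. Deviations of same-numbered libraries correlated at 0.012 on average over 12 pairs (from -0.38 to 0.56), other pairs at 0.0065, and 3 of 15 libraries matched best with their own number. With the replicate block, 180 genes were called higher and 3 lower in 15 libraries, where the same libraries without the block gave 184 and 3. With the block in 13 libraries 6 genes followed Ttr and 3 opposed it, and without it 10 and 0. Against diet mates, totals without TMM moved no count by more than 1.5 times. No sign of a named gene reversed. Of the 192 genes, 131 passed the filter on low counts in the 14 libraries of the slope fit.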
